A study of Mus musculus with 28 samples.

Results

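P19 cells, a mouse embryonal carcinoma line, were compared after 2 days of retinoic acid with MS-275 (entinostat, an inhibitor of class I histone deacetylases) and before any treatment. The question was which of the changes that retinoic acid brings in P19 cells still occurred with the drug, and which genes stayed at the level of the untreated cells. The comparison rests on 4 of the 28 samples of the series, 2 RNA libraries of each condition, and all 10 RNA libraries entered the fit. Day 0 cells were collected from proliferation medium (MEM α with fetal bovine serum) and received neither retinoic acid nor drug. Day 2 cells had 1 µM retinoic acid for 2 days, and 1 µL of a 10 mM MS-275 stock was added after the first 24 hours. The series has no library from that time, so a change seen with the drug may have occurred before it was added. Likewise, a gene at the day 0 level with the drug may have stayed there or returned to it. The volume of medium is not stated, so the final concentration of the drug is not known. A matched day 2 group had the same retinoic acid and 1 µL of the solvent, dimethyl sulfoxide (DMSO), and served to define the response to retinoic acid without the drug. Both day 2 groups had retinoic acid. What is called the retinoic acid response below is therefore the change from day 0 to DMSO, in which acid, time and solvent cannot be told apart. Every group is the same cell line, with no altered gene. No group had the drug without retinoic acid, so in the comparison with day 0 the acid, the time, the solvent and the drug changed together and cannot be told apart. The labels call the day 2 cells neural stem and progenitor cells made from P19 cells, and they state 2 biological replicates without naming separate cultures. The p-values therefore measure the spread between these libraries.

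Retinoic acid enters cells as such or is made there from retinol, is carried by small binding proteins, and acts through nuclear receptors. The retinoic acid receptors pair with retinoid X receptors on response elements in DNA, hold corepressor complexes that contain class I histone deacetylases in the absence of the acid, and exchange them for coactivators when it binds. In P19 cells retinoic acid is known to end the expression of pluripotency genes, to start the Hox genes from their 3′ end and to lead to neural cells. Several of the first targets, such as the enzymes that break retinoic acid down, limit the signal itself.

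Library totals ran from 18115926 to 19586374 estimated counts, and levels below are CPM, counts scaled to a common effective library size. Where a gene's 2 libraries are not listed, its level is given as the mean ± SD of the 2 libraries of a group. Genes with at least 10 counts numbered 15114 to 15219 at day 0, 14885 to 14995 with DMSO and 16451 to 16493 with MS-275. The summed level of 5 pluripotency markers was 2387 to 2409 CPM at day 0, 245 to 248 with DMSO and 199 to 210 with MS-275. Sox2 made up most of the DMSO sum, and 4 of the 5 markers were called higher with MS-275 than with DMSO and Sox2 lower. The summed level of 5 neural progenitor markers was 3.89 to 4.93, 192.9 to 193.2 and 86.9 to 93.2 CPM in the same order. The summed level of 6 neuron markers was 123 to 129, 302 to 328 and 287 to 302 CPM. The summed level of 5 fibroblast markers was 37.4 to 41.8 CPM at day 0, 12.6 to 12.9 with DMSO and 373 to 402 with MS-275, and Col1a1 made up most of the last value. The label of pluripotent cells at day 0 was thus met by its markers, and both day 2 groups had lost most of that level. Because these are bulk samples, fewer cells of a type and less RNA per cell cannot be told apart.

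Of 17789 genes tested, 6644 (37.3%) were called higher and 5731 (32.2%) lower with MS-275 at day 2 than at day 0, by edgeR's quasi-likelihood test at a Benjamini-Hochberg adjusted p under 0.05. The changes were at least 2-fold for 3818 of the higher genes (21.5% of those tested) and 2029 of the lower genes (11.4%). With DMSO, 5765 genes (32.4%) were called higher and 5723 (32.2%) lower than at day 0. The median log2 change over all genes tested was 0.10 with MS-275 and 0.01 with DMSO. With library totals in place of TMM factors the first of these was 0.23, so a log2 change near that size depends on the scaling. Since 69.6% of genes were called in one direction or the other, a call alone says little, and sizes and the position relative to DMSO are given below. Against DMSO, 63.3% of genes were called with MS-275, 31.9% higher and 31.4% lower. Called differences of 2-fold or more numbered 3384 in the higher direction and 1075 (6.04%) in the lower. Nor is a lack of overlap between groups unusual: both libraries of one group lay beyond both of the other in 85.0% of genes for MS-275 against day 0, in 81.3% for DMSO against day 0 and in 81.5% for MS-275 against DMSO. Both day 2 groups were compared with the same day 0 libraries, so a shift in those libraries would move both comparisons alike.

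The response element that retinoid receptors bind stands in the promoters of 2 of the genes described next, and its letters are shown for those and for Prokr2, another rise that was retained with the drug. The DR5 element, a direct repeat of the hexamer that the receptors bind with 5 bases between the copies, was searched on both strands in the window from 250 bases before to 50 bases after each RefSeq gene start (GRCm38.p6). It was present in 32 of 32851 windows (0.0974%), which belong to 31 of 27025 genes. Among the 12358 tested genes with a start in that table, 10 (0.0809%) held it. Of these 10, 3 were rises retained with the drug, 5 did not respond to retinoic acid with DMSO by the limits used here, and 2 were falls. The sequences are given 5′ to 3′ on the gene's strand, with the element in capitals and 6 bases on either side.
Cyp26a1, chr19:37697770-37697798, plus strand, element on the opposite strand: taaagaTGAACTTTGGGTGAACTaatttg
Rarb, chr14:16575507-16575535, minus strand: gggaagGGTTCACCGAAAGTTCActcgca
Prokr2, chr2:132385569-132385597, minus strand: ctgctgAGGTCACAACGGGTTCAagagct
In Rarb the element began 53 bases before the gene start and in Prokr2, which encodes a prokineticin receptor, 144 bases before it. A match is a description of the letters and not a measured site, and promoters without these exact letters can hold other elements. In the authors' peak lists for day 2, with 1 library per mark and condition and therefore no test, the starts of Cyp26a1 and Rarb had peaks of acetylated and crotonylated lysine 9 of histone H3 (H3K9ac, H3K9cr) and of lactylated lysine 18 (H3K18la), both with DMSO and with MS-275. Over all 12358 tested genes with a start, 27.6% had all 3 marks in both conditions. Of 9 supply and breakdown genes with a start in the table, 4 had them (Cyp26a1, Cyp26c1, Dhrs3 and Stra6), as did 6 of 8 receptor and corepressor genes (Rara, Rarb, Rarg, Rxra, Ncor1 and Nrip1). Aldh1a1 had no peak of any mark, Cyp26b1 had none in the DMSO lists and no H3K18la peak, and Aldh1a2 and Lrat lacked H3K18la in both lists. Crabp1, Rxrb and Rxrg lacked H3K18la in the MS-275 list, which held such a peak at 30.4% of all starts, against 75.4% for the DMSO list. The lists differ in size. H3K9ac peaks numbered 26555 with DMSO and 84418 with MS-275, and H3K18la peaks 36382 with DMSO and 31577 with MS-275. A peak present in one list and absent from the other is therefore not read as a change.

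Crabp2 and Cyp26a1, which bind retinoic acid and break it down, rose with the drug to the level they reached without it. Of 14 tested genes of retinoic acid supply and breakdown, 12 were called higher and 2 lower than at day 0 with MS-275, and 11 were higher and 2 lower with DMSO. The list had a median log2 change of 3.34 with MS-275 and 3.44 with DMSO, limits used for 0 counts, beside 0.10 and 0.01 over all genes. Cyp26a1, the hydroxylase that clears retinoic acid and is the best known direct target, was at 0.788 and 1.01 CPM at day 0, 547 and 575 with DMSO, and 574 and 523 with MS-275. The day 0 libraries lay far below both day 2 groups, and the day 2 groups overlapped. Its log2 change from day 0 was 9.25 with MS-275 (SE 0.329, adjusted p = 1.16e-16) and 9.28 with DMSO, and the 95% interval of the difference between the day 2 groups was −0.21 to 0.15. Crabp2, the binding protein that carries the acid to its receptors, was at 26.4 and 25.3 CPM at day 0, 973 and 965 with DMSO, and 1024 and 941 with MS-275. It rose 38.0-fold with MS-275 (log2 5.25, SE 0.0602, adjusted p = 8.48e-19), and its 95% interval against DMSO on the log2 scale was −0.08 to 0.13. For both genes the day 2 groups did not differ by the test.

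A second group of supply genes rose with MS-275 but less than with DMSO. Cyp26b1, a second clearing hydroxylase, was at 0 and 0.0560 CPM at day 0, 210.3 and 206 with DMSO, and 107 and 105 with MS-275, and the drug libraries held 50.9% of the DMSO level (adjusted p = 1.51e-07). Dhrs3, which turns retinaldehyde back to retinol, was at 5.20 and 4.82 CPM at day 0, 66.7 and 72.9 with DMSO, and 25.8 and 30.5 with MS-275, a rise of 5.61-fold with the drug and 13.9-fold without it. Stra6, the membrane receptor for retinol uptake, was at 8.51 and 8.69 CPM at day 0, 74.2 and 76.0 with DMSO, and 44.6 and 45.0 with MS-275, and Crabp1, the second acid-binding protein, had group means of 4.18 ± 0.27, 56.5 ± 6.8 and 37.2 ± 1.7 CPM at day 0, with DMSO and with MS-275. In each of these genes the 3 groups stood apart, with MS-275 between day 0 and DMSO. Cyp26c1, the third hydroxylase of the family, had means of 0.135 ± 0.032, 5.98 ± 0.54 and 4.19 ± 0.58 CPM in the same order, and its day 2 groups did not differ by the test (95% interval of the log2 difference −1.09 to 0.06).

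A last group was higher with MS-275 than with DMSO. Aldh1a2, the main embryonic enzyme that makes retinoic acid, was at 0.368 and 0.0560 CPM at day 0, 3.14 and 2.84 with DMSO, and 38.6 and 41.2 with MS-275. Aldh1a1, a related enzyme, was at 0 CPM in both libraries at day 0, 0.419 and 0.0568 with DMSO, and 11.04 and 8.70 with MS-275, and against the limit of 3 counts over both day 0 libraries its rise with the drug was at least 121-fold (edgeR adjusted p = 1.30e-08). Aldh1a3, the third member, was at 0.210 and 0.392 CPM at day 0, 0.209 and 0.170 with DMSO, and 3.51 and 3.48 with MS-275, with an adjusted p of 1.02e-05 for MS-275 against day 0 and 0.482 for DMSO against day 0. All 3 enzymes were highest in the drug libraries, with no overlap with either other group. Lrat, which stores retinol as esters, was lowest with DMSO and highest with the drug, at 0.630 and 1.01 CPM at day 0, 0 and 0.0568 with DMSO, and 2.62 and 1.99 with MS-275. Rdh10, which makes retinaldehyde, went the other way, with means of 14.1 ± 1.6, 17.4 ± 1.7 and 9.30 ± 1.2 CPM at day 0, with DMSO and with MS-275, and was called lower than at day 0 with the drug (adjusted p = 7.48e-04). Fabp5, a fatty acid-binding protein that can also carry retinoic acid, fell from 111 ± 3.7 CPM at day 0 to 59.9 ± 1.4 with the drug.

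**Figure D1:**
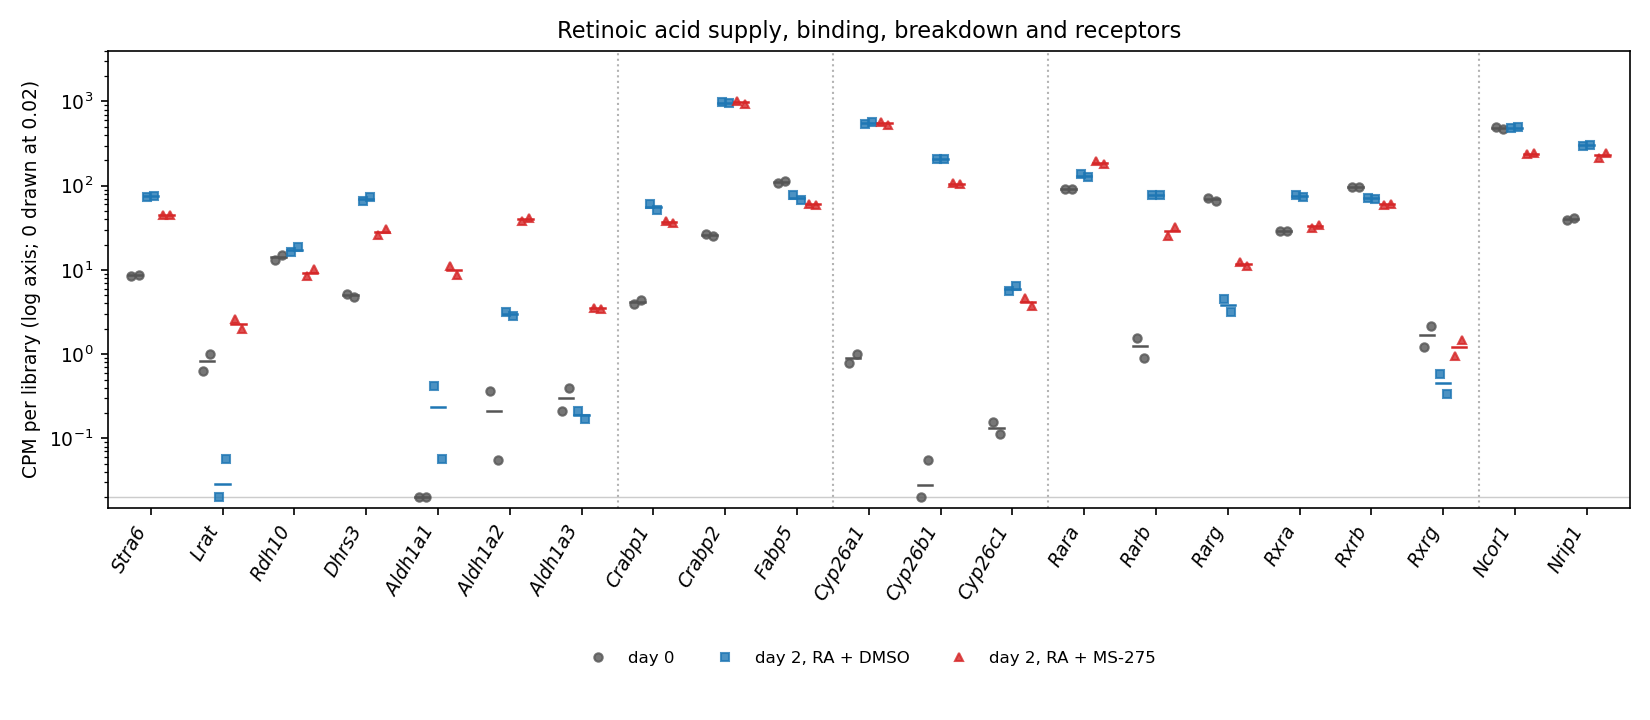
CPM per library (log axis, 0 drawn at 0.02) of genes of retinoic acid supply, binding, breakdown and reception at day 0 (grey circles), day 2 with DMSO (blue squares) and day 2 with MS-275 (red triangles); bars mark the mean of 2 libraries. Crabp2 and Cyp26a1 stand at overlapping heights in both day 2 groups, and Aldh1a1, Aldh1a2 and Aldh1a3 are highest with MS-275.

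Among 9 tested receptors and cofactors, 4 were called higher and 3 lower than at day 0 with MS-275, against 4 and 4 with DMSO (median log2 change of 0.14 with MS-275 and 0.01 with DMSO). Rarb, the receptor whose own promoter carries the element shown above, was at 1.58 and 0.897 CPM at day 0, 77.1 and 77.2 with DMSO, and 25.6 and 32.5 with MS-275. It still rose 23.2-fold with the drug (log2 4.54, SE 0.246, adjusted p = 1.06e-12), to 37.7% of the DMSO level. Rara, the most widely expressed of the family, had means of 92.5 ± 0.0036, 132 ± 7.1 and 187 ± 9.5 CPM at day 0, with DMSO and with MS-275, and was higher with the drug than in both other groups. Rarg was at 71.7 and 66.4 CPM at day 0, 4.50 and 3.18 with DMSO, and 12.3 and 11.3 with MS-275, a fall of 5.86-fold with the drug and 17.9-fold without it. The 3 genes thus moved in the same direction as with DMSO, by less for Rarb and Rarg and by more for Rara.

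The retinoid X receptors and corepressors gave other patterns. Rxra, the partner of the retinoic acid receptors, was at 28.6 and 29.4 CPM at day 0, 77.7 and 72.8 with DMSO, and 31.8 and 34.2 with MS-275, and the drug level was 114% of day 0. Its rise with DMSO was called (adjusted p = 4.56e-11), and the small difference between MS-275 and day 0 (log2 0.19) lost its call without day 0 replicate 1 (adjusted p = 0.158), day 0 replicate 2 (0.0896) or MS-275 replicate 2 (0.229). Rxrb fell from 95.8 ± 0.49 CPM to 60.2 ± 1.7 with the drug (adjusted p = 3.35e-07). Rxrg, at 1.70 ± 0.69 CPM at day 0 and 1.22 ± 0.39 with the drug, did not pass the test. Ncor1, a corepressor that holds histone deacetylase 3 on unliganded receptors, was at 499 and 474 CPM at day 0, 487 and 493 with DMSO, and 238 and 243 with MS-275. Its libraries at day 0 and with DMSO overlapped, while the mean of the drug libraries was 49.5% of day 0 (log2 −1.01, SE 0.0467, adjusted p = 9.04e-12). Nrip1, a corepressor that binds liganded receptors and is a known target of retinoic acid, was at 39.4 and 41.1 CPM at day 0, 293 and 308 with DMSO, and 215 and 243 with MS-275, so it rose 5.70-fold with the drug and 7.47-fold without it.

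The Hox genes of the 3′ part of the clusters rose in every case with the drug. Hox genes encode transcription factors that set position along the body axis, and those of low paralog number are first to respond to retinoic acid. All 15 tested Hox genes of paralog groups 1 to 5 were called higher with MS-275 than at day 0, as all 15 were with DMSO. The median log2 change was 9.26 when the 8 genes with 0 counts at day 0 were set at the limit of 3 counts, and 11.66 as fitted. Neighbouring and antisense genes of these clusters can share reads, so the values of single members are less certain than their joint rise.

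Hoxb1 and Hoxd1, the most 3′ genes of their clusters, were higher with the drug than with DMSO. Hoxb1 was at 0 and 0.112 CPM at day 0, 142 and 146 with DMSO, and 397 and 363 with MS-275. Hoxd1, at lower levels, was at 0.735 and 1.06 CPM at day 0, 2.51 and 2.22 with DMSO, and 10.9 and 9.35 with MS-275, a rise of 11.2-fold with the drug against 2.63-fold without it. The day 2 groups of both genes did not overlap, with adjusted p-values for MS-275 against DMSO of 1.32e-10 and 3.75e-07 in that order. The 12 members of paralog groups 2 to 5 were lower with the drug than with DMSO, though still far above day 0.

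Hoxb3 was at 0 CPM in both libraries at day 0, 277 and 270.3 with DMSO, and 216 and 189.7 with MS-275, at least 2493-fold above day 0 with the drug by the same limit. Hoxb4 was at 0 CPM in both libraries at day 0, 209.8 and 205 with DMSO, and 133 and 156 with MS-275. Hoxa5 was at 0 CPM in both libraries at day 0, 309.7 and 311 with DMSO, and 161 and 166 with MS-275. The drug levels of these genes were 74.0%, 69.8% and 52.7% of the DMSO levels. Hoxa2, Hoxa3 and Hoxa4 had drug means of 16.4 ± 3.6, 49.9 ± 1.2 and 27.6 ± 0.92 CPM beside DMSO means of 36.5 ± 2.1, 74.1 ± 4.0 and 39.8 ± 0.40. Hoxb2 and Hoxb5 had drug means of 107 ± 7.2 and 59.3 ± 0.77 CPM beside 155 ± 0.75 and 162 ± 3.9 with DMSO. Hoxc4 reached 37.0% of the DMSO level, Hoxd3 44.4% and Hoxd4 45.4%. The greatest shortfall among the 15 was that of Hoxc5, at 0 CPM in both libraries at day 0, 235 and 247 with DMSO, and 19.99 and 22.9 with MS-275, where the drug libraries held 8.90% of the DMSO level (adjusted p = 2.31e-14). Of the 9 genes of this list with a start in the promoter table, Hoxa2, Hoxa3, Hoxa5, Hoxb1, Hoxb4, Hoxc4 and Hoxd1 had peaks of all 3 histone marks in both day 2 conditions, as had 27.6% of all tested genes with a start. Hoxd3 had no H3K18la peak in either condition, and Hoxd4 had peaks of all 3 marks with MS-275 and none with DMSO. Because the lists differ in size, the Hoxd4 peaks are not read as a change.

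**Figure D2:**
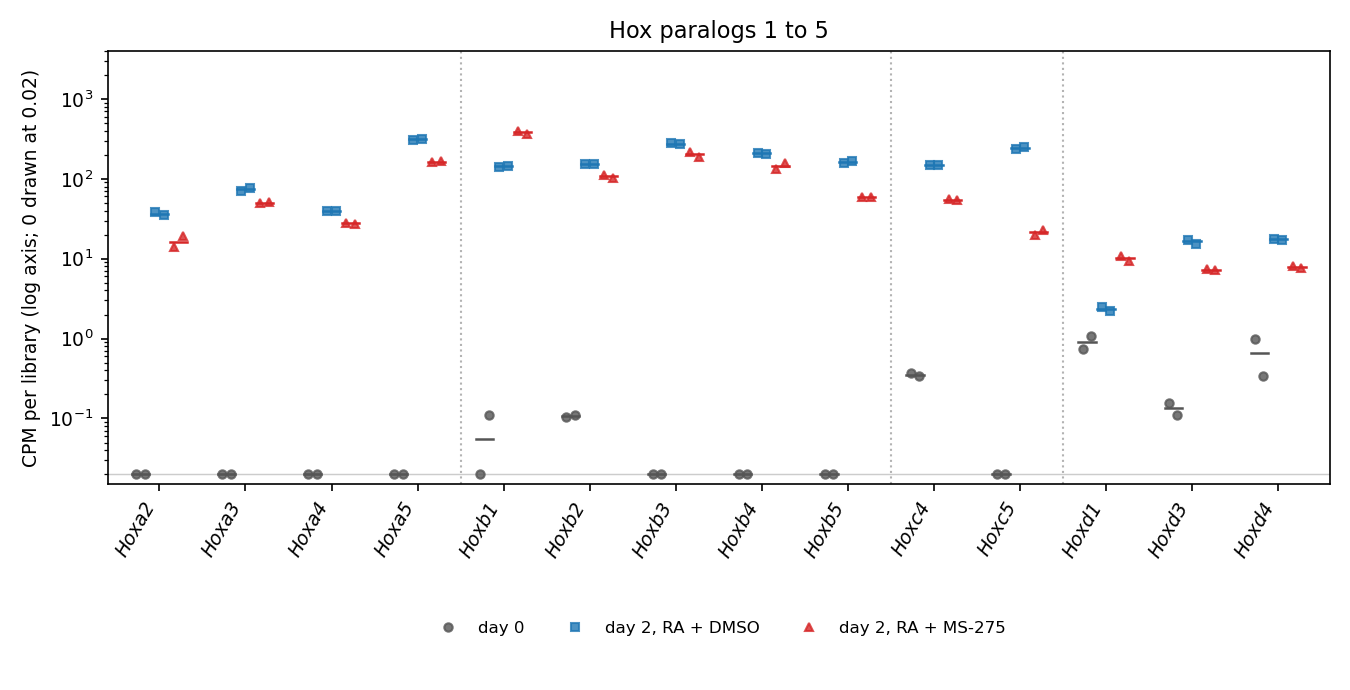
CPM per library (log axis, 0 drawn at 0.02) of 14 Hox genes of paralog groups 1 to 5, in cluster order, at day 0 (grey circles), day 2 with DMSO (blue squares) and day 2 with MS-275 (red triangles); bars mark group means. All drug libraries lie above all day 0 libraries. Hoxb1 and Hoxd1 lie above DMSO, and Hoxc5 is lowest relative to DMSO.

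Most Hox genes further 5′ were higher with the drug. Of 17 tested genes of paralog groups 6 to 13, 16 were called higher than at day 0 with MS-275 and 9 with DMSO (median log2 change of 6.03 with MS-275 and 3.74 with DMSO, limits used for 0 counts). Hoxb6 was at 0 CPM in both libraries at day 0, 64.9 and 63.4 with DMSO, and 67.5 and 61.8 with MS-275, at least 795-fold above day 0 with the drug. Hoxb8 was at 0.105 and 0 CPM at day 0, 134 and 124 with DMSO, and 121 and 109 with MS-275. For these 2 genes the day 2 groups did not differ by the test. Hoxa7 was at 0 CPM in both libraries at day 0, 3.92 and 3.41 with DMSO, and 25.3 and 22.4 with MS-275. Hoxa9 was at 0 CPM in both libraries at day 0, 0.157 and 0 with DMSO, and 12.1 and 10.6 with MS-275. Hoxa9 rose at least 139.7-fold with the drug (adjusted p = 1.65e-10) and was not called with DMSO (adjusted p = 0.0931), and MS-275 against DMSO was itself called for both Hoxa7 (adjusted p = 5.87e-11) and Hoxa9 (adjusted p = 5.40e-10). Of 9 tested Hox cofactors, which are partner proteins that help Hox proteins to bind DNA, 8 were higher with MS-275 and 7 with DMSO (median log2 change of 0.67 with MS-275 and 1.05 with DMSO). Meis1 was at 1.05 and 0.897 CPM at day 0, 285 and 291 with DMSO, and 336 and 335 with MS-275. Meis2 had means of 2.33 ± 0.11, 237 ± 3.4 and 329.8 ± 7.7 CPM at day 0, with DMSO and with MS-275. Pknox2 was the cofactor called lower with the drug, at 54.6 ± 5.0 CPM at day 0 and 39.1 ± 2.7 with MS-275.

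Most other known targets of retinoic acid were also higher than at day 0 with the drug. Of 20 tested, 18 were called higher and 2 lower with MS-275, against 15 and 1 with DMSO (median log2 change of 6.30 with MS-275 and 5.79 with DMSO). Between the day 2 groups, 12 of the 20 were higher and 8 lower with MS-275 than with DMSO. Cdx1, a caudal-type homeobox factor that acts on Hox genes, was at 0 and 0.0560 CPM at day 0, 5.07 and 5.97 with DMSO, and 43.7 and 41.1 with MS-275, and its paralog Cdx2 had means of 0.0280 ± 0.040, 1.96 ± 0.038 and 9.82 ± 1.1 CPM. Both were higher with the drug than with DMSO in every library. Lhx1, a LIM homeobox factor, was at 0.105 and 0.448 CPM at day 0, 139.8 and 136 with DMSO, and 212 and 205 with MS-275. The nuclear receptor genes Nr2f1 and Nr2f2 (COUP-TF factors) rose but by less, with Nr2f1 at 0.420 and 0.336 CPM at day 0, 123 and 118 with DMSO, and 49.6 and 54.7 with MS-275. Nr2f2 had means of 0.131 ± 0.19, 69.4 ± 1.5 and 28.5 ± 0.52 CPM in the same order of groups. Tbx3, a T-box factor counted here among naive pluripotency genes, had means of 0.599 ± 0.10, 17.4 ± 0.82 and 18.4 ± 0.52 CPM and its day 2 groups did not differ by the test. Rai14, named for its induction by retinoic acid in another cell type, fell from 67.5 ± 0.50 to 41.7 ± 2.6 CPM with the drug and was not called with DMSO.

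Across the genome, most of the rises from day 0 to DMSO and 47.4% of the falls were also seen at day 2 with the drug. Whether they came before or after the drug was added cannot be told from these libraries. A response was defined as a called change of at least 2-fold between DMSO and day 0 with a mean of at least 1 CPM in 1 of these groups, which gave 2007 rises and 2279 falls. Of the rises, 1421 (70.8%) were also at least 2-fold above day 0 with MS-275. In the whole table, 21.5% of genes tested were at least 2-fold higher in that comparison, but the count cannot be read as independent evidence because both comparisons share the day 0 libraries. Of the 1421, 479 were higher with MS-275 than with DMSO, 416 were lower and 526 were not called, and the median log2 change was 2.43 with the drug and 2.25 with DMSO. With a separate day 0 library for each comparison the share was 69.7% of 1841 rises with one assignment and 68.2% of 1848 with the reverse.

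Of the 2007 rises, 321 (16.0%) were within 2-fold of the day 0 level with MS-275. These had a 95% interval of the change from day 0 inside 2-fold either way, or at most 3 counts in both groups (6 genes), and a level below DMSO by the test. Over all genes tested, 45.2% had such an interval. Within 2-fold does not mean equal: 189 of the 321 were still called above day 0, 26 below it and 106 neither way. The class consisted largely of modest rises, with a median log2 change from day 0 of 1.23 with DMSO and 0.39 with MS-275. For 123 of the 321 the 95% interval against DMSO also lay within 2-fold. Of 871 rises of at least 4-fold with DMSO, 27 (3.10%) were at the day 0 level with MS-275. A further 256 of the 2007 rises (12.8%) lay between these classes, and 9 (0.448%) were at least 2-fold below day 0. Of the 2279 falls, 1080 (47.4%) were also at least 2-fold below day 0 with the drug, beside 11.4% of all genes. Of the 1080, 360 were higher with MS-275 than with DMSO, 224 were lower and 496 were not called. Their median log2 change was −1.96 with the drug and −2.34 with DMSO. Another 482 falls (21.1%) were within 2-fold of day 0 and above DMSO by the test, of which 74 were called above day 0, 174 below and 234 neither way. The remaining falls were 487 (21.4%) between the classes and 230 (10.1%) that were at least 2-fold above day 0.

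**Figure D3:**
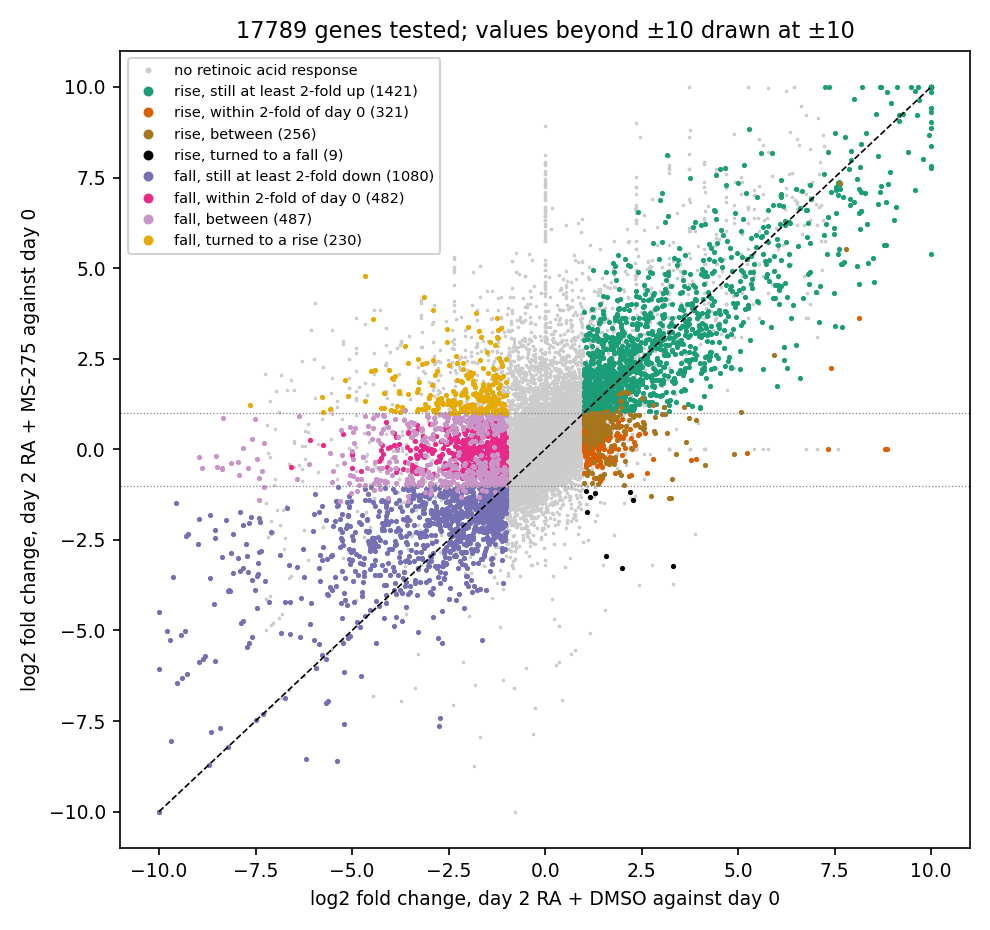
Log2 fold change from day 0 with DMSO (x axis) and with MS-275 (y axis) for 17789 genes, coloured by class of retinoic acid response, with values beyond 10 drawn at the edge. The dashed line marks equal change and the dotted lines 2-fold from day 0; both axes share the day 0 libraries. Rises lie mostly above the upper dotted line (1421 of 2007), and falls are split between below the lower line (1080 of 2279), the band between the lines, and above it (230).

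Of the 321 rises whose drug level was within 2-fold of day 0, 189 were still called above day 0 and 26 below it. The genes named in this paragraph were chosen for the largest changes with DMSO. They are not typical of the class, whose median log2 change with DMSO was 1.23. Igfbp5, a secreted binding protein of insulin-like growth factors, was at 22.7 and 23.3 CPM at day 0, 347 and 345 with DMSO, and 17.1 and 20.8 with MS-275. Shisa6, an auxiliary protein of AMPA receptors, was at 22.8 and 25.3 CPM at day 0, 316 and 338 with DMSO, and 18.8 and 20.1 with MS-275. The drug libraries of both genes lay just under the day 0 libraries and far under those with DMSO (log2 MS-275 against DMSO −4.19, SE 0.0736, and −4.07, SE 0.0732). Their small differences from day 0, −0.28 and −0.31 on the log2 scale, lost their call without MS-275 replicate 1 for Igfbp5 (adjusted p = 0.166) and without day 0 replicate 2 for Shisa6 (adjusted p = 0.0507). Gli2, a transcription factor of Hedgehog signalling, was at 10.4 and 11.6 CPM at day 0, 57.8 and 58.6 with DMSO, and 13.1 and 15.9 with MS-275. Plpp3, a lipid phosphatase, had means of 3.77 ± 1.3, 22.7 ± 1.1 and 5.16 ± 0.089 CPM in the order day 0, DMSO and MS-275. Cplx2, a complexin of synaptic vesicle release, was at 13.5 and 15.1 CPM at day 0, 84.6 and 95.01 with DMSO, and 8.17 and 10.2 with MS-275, so with the drug it was below day 0 (adjusted p = 1.85e-04). Lrp4, a receptor that binds agrin and Wnt inhibitors, had means of 26.3 ± 1.6, 153 ± 1.7 and 44.7 ± 0.016 CPM and was called above day 0 with the drug by 1.70-fold. Fam69c and Tagln3 had drug means of 3.37 ± 0.76 and 2.08 ± 0.078 CPM beside 2.504 ± 0.42 and 2.47 ± 1.2 at day 0 and 13.5 ± 0.68 and 17.4 ± 0.59 with DMSO, and neither was called against day 0.

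Cdh2 and Msi1 were in the same class and were chosen after their values were seen. Cdh2, the N-cadherin that neural cells take up in place of E-cadherin, was at 94.7 and 83.8 CPM at day 0, 339 and 343 with DMSO, and 113 and 118 with MS-275. Msi1, an RNA-binding protein of neural progenitors, was at 123 and 118 CPM at day 0, 297 and 294 with DMSO, and 69.1 and 68.7 with MS-275. With DMSO both had risen above day 0 in every library, and with the drug Cdh2 was 1.30-fold above day 0 and Msi1 1.75-fold below it. Of the 9 rises that became falls, Lrrc4, a synaptic adhesion protein, was at 4.99 and 5.72 CPM at day 0, 58.1 and 49.0 with DMSO, and 0.396 and 0.746 with MS-275. Itgb8, an integrin subunit that activates TGF-β, was at 17.4 and 20.1 CPM at day 0, 54.7 and 57.0 with DMSO, and 2.13 and 2.69 with MS-275. Boc, a co-receptor for Hedgehog ligands, had means of 25.2 ± 1.2, 62.2 ± 0.16 and 10.96 ± 0.31 CPM, Ap4s1, a subunit of an adaptor complex, 6.82 ± 0.68, 14.5 ± 1.2 and 2.06 ± 0.042 CPM, and Pcdhb22, a clustered protocadherin, 13.2 ± 0.96, 27.4 ± 1.9 and 5.98 ± 0.69 CPM, in the order day 0, DMSO and MS-275. In these 5 genes each drug library was below each day 0 library.

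The core pluripotency genes did not stay at the day 0 level. Of 18 tested, 17 were called lower with MS-275 than at day 0 and none higher, against 15 and none with DMSO, and 32.2% of all genes were called lower in each comparison. The median log2 change was −2.504 with the drug and −4.03 with DMSO, beside 0.10 and 0.01 over all genes. Pou5f1 (Oct4), the factor most closely tied to the pluripotent state, was at 1433 and 1401 CPM at day 0, 40.0 and 38.0 with DMSO, and 76.95 and 81.2 with MS-275. It fell 17.9-fold with the drug (log2 −4.16, SE 0.0585, adjusted p = 1.94e-17), to 5.58% of day 0, and was 2.03-fold above its level with DMSO (adjusted p = 1.24e-09). Dnmt3b, the methyltransferase that places new DNA methylation in early embryos, was at 1163 and 1168 CPM at day 0, 54.4 and 52.5 with DMSO, and 197 and 200.4 with MS-275. Utf1, a chromatin-bound factor of embryonic stem cells, was at 334 and 314 CPM at day 0, 0.419 and 0.341 with DMSO, and 8.51 and 8.21 with MS-275, and L1td1, an RNA-binding protein of these cells, at 439 and 466 CPM at day 0, 4.97 and 4.32 with DMSO, and 23.9 and 24.4 with MS-275. In these 4 genes the drug libraries lay above the DMSO libraries and well below day 0.

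Zscan10 and Tdgf1 followed that order as well. Zscan10, a zinc finger factor, had means of 139 ± 7.0, 6.25 ± 0.41 and 25.8 ± 0.62 CPM at day 0, with DMSO and with MS-275. Tdgf1 (Cripto), the co-receptor of Nodal, was at 120.0 and 125 CPM at day 0, 0.209 and 0.170 with DMSO, and 1.63 and 1.69 with MS-275. Dppa4 had means of 25.4 ± 0.13, 0.0852 ± 0.12 and 1.69 ± 0.20 CPM, and Dppa2 and Fgf4, each with 0 counts with DMSO, were at 0.793 ± 0.42 and 0.446 ± 0.21 CPM with the drug beside 4.00 ± 0.35 and 5.22 ± 0.33 at day 0. Other members fell to about the same level in both day 2 groups or lower with the drug. Sall4, a zinc finger factor, was at 249 and 239 CPM at day 0, 97.1 and 92.7 with DMSO, and 89.8 and 89.2 with MS-275, and its day 2 groups did not differ by the test. Sall1 had means of 259.6 ± 2.3, 56.1 ± 1.4 and 45.7 ± 3.3 CPM, Lin28a, which blocks maturation of let-7, 598 ± 15, 122 ± 0.93 and 105 ± 6.7 CPM, and Trim71, 242 ± 1.2, 90.3 ± 2.3 and 69.5 ± 0.35 CPM. Gdf3, a ligand of the Nodal family, was at 85.3 and 91.8 CPM at day 0, 7.69 and 6.76 with DMSO, and 4.404 and 4.33 with MS-275.

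Sox2, Tet1, Lin28b and Nanog stood apart in this list. Sox2, which is shared by pluripotent and neural cells, was at 194 and 197 CPM at day 0, 193 and 199 with DMSO, and 78.0 and 82.7 with MS-275. The day 0 and DMSO libraries were at the same level and the mean of the drug libraries was 41.1% of day 0 (log2 −1.28, SE 0.0529, adjusted p = 2.20e-12). Tet1, an enzyme that oxidises methylated cytosine, had means of 179 ± 0.32, 114 ± 5.8 and 88.2 ± 16 CPM. Lin28b had means of 139 ± 7.8, 155 ± 2.3 and 113 ± 4.5 CPM, and its call against day 0 was lost without day 0 replicate 2 (adjusted p = 0.110) or MS-275 replicate 1 (0.0799). Nanog was at 9.03 and 9.36 CPM at day 0, 6.38 and 6.65 with DMSO, and 11.8 and 13.4 with MS-275, and it passed the test in neither comparison with day 0 (adjusted p = 0.0975 with MS-275 and 0.0947 with DMSO), while MS-275 was above DMSO (adjusted p = 0.00283). Among 14 of these genes with a start in the promoter table, H3K9ac peaks stood at 14 starts with MS-275 and 13 with DMSO, and H3K18la peaks at 8 and 12. Over all 12358 tested genes with a start these shares were 91.5% and 86.6% for H3K9ac and 30.4% and 75.4% for H3K18la.

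**Figure D4:**
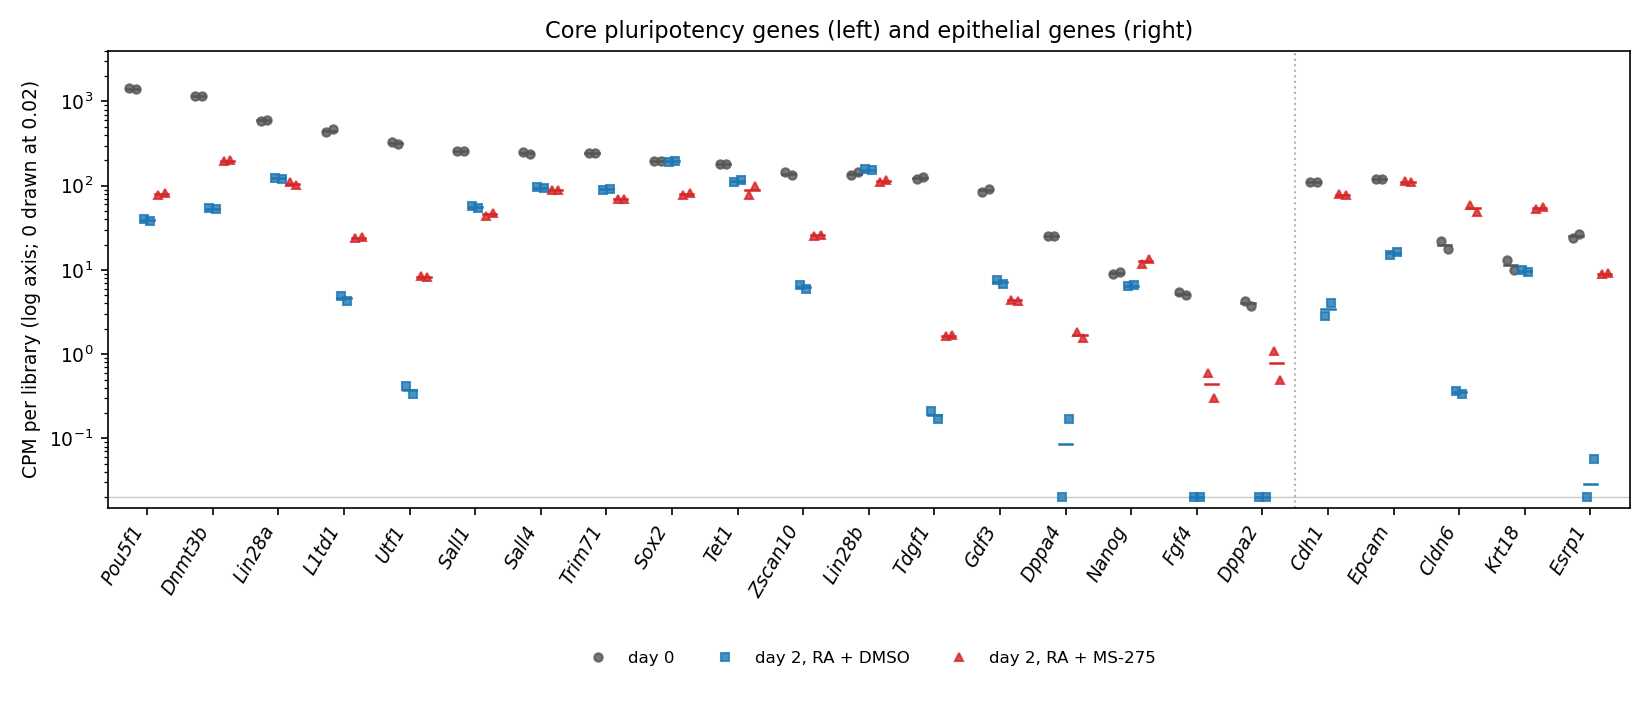
CPM per library (log axis, 0 drawn at 0.02) of 18 core pluripotency genes, ordered by day 0 level, and 5 epithelial genes, at day 0 (grey circles), day 2 with DMSO (blue squares) and day 2 with MS-275 (red triangles); bars mark group means. Drug libraries lie below day 0 for 17 of the 18 pluripotency genes, Nanog being the exception, while Cdh1 and Epcam are near their day 0 level with MS-275.

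The naive and primed sets moved in different ways. Of 10 tested genes of naive pluripotency, 6 were called higher and 2 lower with MS-275 than at day 0, against 1 and 6 with DMSO (median log2 change of 1.13 with MS-275 and −1.49 with DMSO). The list holds 15 genes, and Zfp42, Dppa3, Dppa5a, Prdm14 and Tcl1 were too low to be tested. Tbx3, described above, was the gene called higher with DMSO, and it counts among the 6 higher with MS-275. Tfcp2l1, a factor of the naive state, was at 3.57 and 4.48 CPM at day 0, 1.46 and 1.70 with DMSO, and 20.04 and 18.3 with MS-275, below day 0 with DMSO and 4.76-fold above it with the drug (adjusted p = 8.66e-09). Nr5a2, an orphan nuclear receptor that can activate Pou5f1, had means of 0.324 ± 0.062, 0.214 ± 0.14 and 5.93 ± 0.41 CPM, and Klf4 3.33 ± 0.92, 0.941 ± 0.52 and 5.73 ± 0.76 CPM, in the order day 0, DMSO and MS-275. The call of Klf4 against day 0 was lost without day 0 replicate 1 (adjusted p = 0.152) or MS-275 replicate 2 (0.0942). Dnmt3l, the cofactor of the DNA methyltransferases, fell in both day 2 groups and was at 31.1 and 31.4 CPM at day 0, 0.105 and 0.114 with DMSO, and 3.12 and 2.69 with MS-275.

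Of 12 tested genes of primed pluripotency and Nodal signalling, 8 were called lower and 1 higher with MS-275, against 8 lower and 3 higher with DMSO (median log2 change of −2.06 with MS-275 and −0.65 with DMSO). Otx2, a homeobox factor of the epiblast and the anterior brain, was at 224 and 230.3 CPM at day 0, 55.8 and 53.9 with DMSO, and 13.5 and 21.5 with MS-275. Zic2 had means of 92.3 ± 1.8, 15.6 ± 0.45 and 10.3 ± 1.4 CPM. Both were lower with the drug than with DMSO. Lefty1, a secreted inhibitor and target of Nodal, was at 175 and 161 CPM at day 0, 183 and 202 with DMSO, and 10.99 and 18.8 with MS-275, and it fell 11.3-fold with the drug (adjusted p = 1.42e-12) while DMSO was not called against day 0. Nodal itself was at 27.4 and 28.1 CPM at day 0, 40.5 and 41.9 with DMSO, and 6.98 and 8.70 with MS-275. Lefty2 was at 11.8 and 10.9 CPM at day 0, 29.1 and 28.2 with DMSO, and 8.12 and 10.9 with MS-275. Both were chosen after their values were seen. Nodal was below day 0 with the drug and above it with DMSO, and Lefty2 rose with DMSO but was not called with the drug, except without MS-275 replicate 2 (log2 −0.49, adjusted p = 0.0193). Lefty1 and Lefty2 are close in sequence, and reads may be split between them. Foxd3 had means of 62.3 ± 1.7, 1.257 ± 0.15 and 3.84 ± 0.092 CPM. Sox3, a relative of Sox2 in neural progenitors, was higher with the drug than at day 0, at 41.7 and 41.6 CPM at day 0, 32.2 and 29.2 with DMSO, and 69.9 and 65.1 with MS-275.

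Some epithelial genes were near the day 0 level with the drug. Of 13 tested genes of epithelial junctions and keratins, 4 were called higher and 5 lower with MS-275 than at day 0, against none higher and 11 lower with DMSO (median log2 change of −0.16 with MS-275 and −2.93 with DMSO). Cdh1 (E-cadherin), the adhesion molecule of epithelial and embryonic stem cells, was at 112 and 111 CPM at day 0, 2.88 and 4.09 with DMSO, and 79.2 and 77.6 with MS-275. With DMSO it fell to 3.13% of day 0, and with the drug it stood at 70.4% (log2 −0.51, SE 0.0820, adjusted p = 3.82e-05). Epcam, an epithelial adhesion molecule chosen after its values were seen, was at 121 and 119 CPM at day 0, 15.2 and 16.3 with DMSO, and 113 and 109.6 with MS-275. Its drug level was 92.9% of day 0, and the 95% interval of the log2 change was −0.26 to 0.05. Cldn6, a claudin of embryonic epithelia, was at 21.8 and 17.8 CPM at day 0, 0.366 and 0.341 with DMSO, and 59.7 and 48.8 with MS-275. Krt18, a keratin of simple epithelia, was at 13.2 and 9.97 CPM at day 0, 10.1 and 9.43 with DMSO, and 52.6 and 55.4 with MS-275. Both were higher with the drug than in either other group. Esrp1, a splicing factor of epithelial cells, had means of 25.5 ± 1.9, 0.0284 ± 0.040 and 9.05 ± 0.14 CPM, so its drug level was between the others, at 35.5% of day 0. Cldn4 fell in both day 2 groups, with means of 3.17 ± 0.031, 0.358 ± 0.14 and 0.596 ± 0.42 CPM.

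Other falls that were near the day 0 level with the drug included Prph, Dtx1 and Enpp2. Prph, the intermediate filament peripherin of peripheral neurons, was at 34.4 and 37.8 CPM at day 0, 1.15 and 0.739 with DMSO, and 54.6 and 42.1 with MS-275. Dtx1, a ubiquitin ligase of the Notch pathway, was at 38.3 and 44.2 CPM at day 0, 2.09 and 0.852 with DMSO, and 27.3 and 27.6 with MS-275. Enpp2 (autotaxin), which makes lysophosphatidic acid, had means of 15.2 ± 1.9, 0.766 ± 0.12 and 12.0 ± 1.1 CPM in the order day 0, DMSO and MS-275. In each, the DMSO libraries were far below both other groups. Ablim3, an actin-binding protein, had 3 counts over both DMSO libraries and means of 8.39 ± 0.42, 0.0785 ± 0.11 and 6.003 ± 0.092 CPM. Faim2, an inhibitor of Fas-mediated cell death, was at 16.2 and 13.95 CPM at day 0, 0.366 and 0.170 with DMSO, and 18.4 and 14.3 with MS-275, with overlap between day 0 and the drug. Tmem130 and Tmem151a, membrane proteins, had drug means of 15.7 ± 2.5 and 11.01 ± 2.0 CPM beside 16.7 ± 0.69 and 13.1 ± 1.3 at day 0, and DMSO means of 0.517 ± 0.0083 and 0.674 ± 0.23. None of Faim2, Tmem130 and Tmem151a was called against day 0 with the drug (adjusted p = 0.513, 0.550 and 0.235).

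Falls also seen with the drug included genes that were almost silent with DMSO and higher with MS-275. These genes were named for the size of their fall with DMSO, a choice that favours low DMSO levels. Calcr, the calcitonin receptor, was at 55.0 and 55.8 CPM at day 0, 0.0523 and 0.114 with DMSO, and 9.65 and 11.6 with MS-275. Fam129a, a stress-linked protein also called Niban, was at 143 and 139.6 CPM at day 0, 0.105 and 0 with DMSO, and 1.48 and 2.74 with MS-275. Il20ra, a cytokine receptor subunit, was at 11.03 and 11.7 CPM at day 0, 0 in both libraries with DMSO, and 0.445 and 0.547 with MS-275. The drug libraries of these 3 genes were between the others, at 19.2%, 1.49% and 4.38% of day 0. Trim66, a chromatin reader, was at 237 and 226 CPM at day 0, 0.419 and 0.114 with DMSO, and 0.742 and 0.995 with MS-275, which is close to silent in both day 2 groups. Among the falls that became rises, Col1a1, the main chain of type I collagen, was at 27.8 and 21.9 CPM at day 0, 3.30 and 3.35 with DMSO, and 372 and 342 with MS-275, 14.4-fold above day 0 with the drug (adjusted p = 1.03e-14) and 7.47-fold below it without. Lbp, which binds bacterial lipopolysaccharide, was at 2.15 and 1.46 CPM at day 0, 0.732 and 0.284 with DMSO, and 26.8 and 22.2 with MS-275. Padi2, an enzyme that turns arginine into citrulline, was at 1.31 and 1.79 CPM at day 0, 0.105 and 0 with DMSO, and 46.7 and 38.9 with MS-275. Pla2g1b, a secreted phospholipase, had means of 1.25 ± 0.13, 0.138 ± 0.047 and 23.2 ± 1.5 CPM. Nrgn, a calmodulin-binding protein of neurons, was at 0.735 and 1.51 CPM at day 0, 0.419 and 0.511 with DMSO, and 16.0 and 11.9 with MS-275. Its fall with DMSO (log2 −1.25) lost its call without day 0 replicate 2 (log2 −0.66, adjusted p = 0.319), DMSO replicate 1 (adjusted p = 0.120) or DMSO replicate 2 (adjusted p = 0.0594).

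Neural progenitor genes rose with the drug, several of them to a lower level than with DMSO. Of 25 tested neural stem and progenitor genes, 20 were called higher and 5 lower with MS-275, against 22 and 2 with DMSO (median log2 change of 2.21 with MS-275 and 2.06 with DMSO, limits used for 0 counts). Sox1, the earliest marker of the neural plate, was at 2.15 and 1.40 CPM at day 0, 109 and 106 with DMSO, and 31.8 and 32.8 with MS-275, a rise of 18.02-fold with the drug and 59.7-fold without it. Pax3, a factor of the dorsal neural tube, was at 0 CPM in both libraries at day 0, 54.3 and 59.3 with DMSO, and 9.95 and 12.6 with MS-275, at least 138-fold above day 0 with the drug. Pax6, Dbx1 and Sox9 were higher with the drug than with DMSO. Pax6, a factor of ventral and cortical progenitors, was at 1.47 and 3.19 CPM at day 0, 16.7 and 15.6 with DMSO, and 42.3 and 45.8 with MS-275. Dbx1, which marks a progenitor domain of the spinal cord, was at 0 CPM in both libraries at day 0, 11.9 and 10.4 with DMSO, and 24.3 and 24.8 with MS-275. Sox9 had means of 1.64 ± 0.38, 39.2 ± 0.025 and 53.4 ± 0.23 CPM, and Zic5 was one of the genes that fell, with means of 67.7 ± 4.4, 9.29 ± 1.7 and 7.19 ± 1.2 CPM. The summed marker levels given above show the same mix, since neural progenitor markers with the drug stood between day 0 and DMSO.

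Several proneural factors, which commit progenitors to become neurons, were lower with the drug than with DMSO. Of 15 tested, 9 were called higher and 2 lower than at day 0 with MS-275, against 10 and none with DMSO (median log2 change of 1.47 with MS-275 and 3.74 with DMSO, limits used for 0 counts). Neurog1 was at 0 CPM in both libraries at day 0, 17.1 and 16.8 with DMSO, and 1.09 and 1.79 with MS-275. Nhlh2, a later factor of the same family, was at 0 CPM in both libraries at day 0, 22.1 and 20.3 with DMSO, and 3.37 and 3.48 with MS-275. The drug libraries of both genes held 8.50% and 16.1% of the DMSO levels, with adjusted p-values of 5.25e-10 and 7.59e-11. Ebf2 had means of 0.0543 ± 0.0025, 8.46 ± 0.42 and 1.39 ± 0.065 CPM. Hes6, which promotes neuronal differentiation, fell below day 0 with the drug, with means of 13.01 ± 1.4, 16.6 ± 0.0053 and 7.81 ± 0.71 CPM, and Neurog2 was under 1 CPM in all 3 groups and was not called.

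Most Notch and Wnt genes were called higher in both day 2 groups. Of 19 tested Notch genes, 12 were called higher and 5 lower with MS-275, against 12 and 3 with DMSO (median log2 change of 0.85 with MS-275 and 0.64 with DMSO). Dll1, a Notch ligand of committed neural cells, was at 7.35 and 6.05 CPM at day 0, 113 and 104 with DMSO, and 33.3 and 37.2 with MS-275. Dll4 had means of 0.138 ± 0.12, 12.9 ± 4.4 and 1.04 ± 0.35 CPM. Hes3, a factor of early neural cells, had means of 0.0525 ± 0.074, 13.1 ± 0.033 and 2.18 ± 0.27 CPM. Nrarp, a feedback inhibitor, had means of 2.56 ± 0.84, 41.2 ± 1.1 and 22.3 ± 0.55 CPM. These 4 genes rose with the drug and stayed below their DMSO level. Jag1, another ligand, fell from 30.0 ± 1.7 to 14.5 ± 0.47 CPM with the drug and was not called with DMSO. Of 26 tested Wnt genes, 20 were called higher and 4 lower with MS-275, against 19 and 6 with DMSO (median log2 change of 2.37 with MS-275 and 2.65 with DMSO, limits used for 0 counts). Wnt1, a ligand of the dorsal neural tube, was at 0 CPM in both libraries at day 0, 30.4 and 31.5 with DMSO, and 5.30 and 3.78 with MS-275. Sp5, a direct target of Wnt signalling, was at 0.0525 and 0.112 CPM at day 0, 26.3 and 23.9 with DMSO, and 6.19 and 5.67 with MS-275. Wnt8a, a ligand of the primitive streak, was at 0.158 and 0.280 CPM at day 0, 1.31 and 0.682 with DMSO, and 11.3 and 12.8 with MS-275, higher with the drug than with DMSO (log2 3.58, SE 0.314). Dkk1, a secreted Wnt inhibitor, had means of 0, 9.21 ± 0.075 and 8.95 ± 0.85 CPM, and its day 2 groups did not differ by the test. Sfrp2 fell from 37.9 ± 0.41 to 19.2 ± 2.2 CPM with the drug.

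Genes of neurons and synapses were in part higher with the drug than in both other groups. Of 27 tested neuron genes, 19 were called higher and 5 lower than at day 0 with MS-275, against 17 and 5 with DMSO (median log2 change of 1.93 with MS-275 and 0.69 with DMSO). Of 30 synapse and ion channel genes, 16 were higher and 7 lower with MS-275, against 7 and 13 with DMSO (median log2 change of 0.57 with MS-275 and −0.19 with DMSO). Mapt, the microtubule protein tau, was at 0.945 and 1.23 CPM at day 0, 1.099 and 1.31 with DMSO, and 73.9 and 72.7 with MS-275, so the 4 libraries without the drug overlapped and it rose 67.2-fold with MS-275 (log2 6.07, SE 0.216, adjusted p = 8.15e-16). Tubb3, the neuronal β-tubulin, was at 66.9 and 72.2 CPM at day 0, 101 and 87.0 with DMSO, and 55.5 and 53.7 with MS-275, above day 0 with DMSO and below it with the drug. Stmn2, a tubulin-binding protein of growing axons, fell in both groups, at 235 and 243 CPM at day 0, 24.0 and 22.0 with DMSO, and 81.8 and 80.3 with MS-275. Dcx had means of 0.753 ± 0.27, 38.5 ± 0.55 and 32.3 ± 2.2 CPM. Pou4f1, a factor of sensory neurons, had means of 0.0823 ± 0.042, 2.08 ± 0.43 and 5.83 ± 0.20 CPM. Lhx5, a LIM homeobox factor, had log2 changes from day 0 of 6.92 with MS-275 and 2.77 with DMSO.

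In lists of several other cell types most members were called higher with the drug. The neural crest list had 13 of 14 tested genes higher and 1 lower with MS-275, against 8 and 2 with DMSO (median log2 change of 3.50 with MS-275 and 2.28 with DMSO, limits used for 0 counts). Ngfr, the low-affinity neurotrophin receptor, was at 0.630 and 0.785 CPM at day 0, 5.75 and 6.88 with DMSO, and 205 and 192 with MS-275, 279-fold above day 0 with the drug and 8.86-fold without it. Tfap2c was at 0.578 and 0.448 CPM at day 0, 11.7 and 10.0 with DMSO, and 51.4 and 49.9 with MS-275, Ednrb, the endothelin receptor of crest cells, had means of 0.676 ± 0.084, 74.9 ± 3.2 and 39.6 ± 3.1 CPM, and Msx1 was highest with DMSO, at 0.158 and 0.560 CPM at day 0, 278 and 277 with DMSO, and 52.5 and 49.3 with MS-275. The summed crest markers Sox10, Tfap2a and Foxd3 were at 64.2 to 66.6 CPM at day 0, 16.5 to 18.7 with DMSO and 26.4 to 29.2 with MS-275, and Foxd3, which pluripotent cells also express, made up most of the day 0 sum. Sox10 and Tfap2a were called higher with the drug than at day 0, with means of 2.30 ± 0.24, 5.59 ± 0.68 and 14.1 ± 1.8 CPM and 0.818 ± 0.19, 10.8 ± 1.0 and 9.82 ± 0.25 CPM at day 0, with DMSO and with MS-275. Foxd3 was called lower, with means of 62.3 ± 1.7, 1.257 ± 0.15 and 3.84 ± 0.092 CPM. The part of crest cells in the rises of this list was not tested. Of 13 tested collagens, 11 were higher and 2 lower with the drug, against 6 and 4 with DMSO (median log2 change of 2.82 with MS-275 and 0.38 with DMSO). Col2a1, the collagen of cartilage and notochord, was at 7.51 and 9.41 CPM at day 0, 321 and 342 with DMSO, and 66.6 and 71.1 with MS-275, Col11a1 had means of 3.90 ± 0.36, 44.4 ± 1.5 and 56.8 ± 1.6 CPM, and Col5a2 fell from 90.3 ± 2.6 to 12.9 ± 1.2 CPM. Of 16 fibroblast and mesenchyme genes, 11 were higher and 2 lower with the drug, against 10 and 2 with DMSO (median log2 change of 1.60 with MS-275 and 0.61 with DMSO, limits used for 0 counts). Twist1 had means of 0.7002 ± 0.20, 2.80 ± 0.34 and 5.14 ± 0.19 CPM and Snai1 1.67 ± 0.38, 1.23 ± 0.033 and 8.14 ± 0.67 CPM.

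In 14 tested genes of glia, 9 were higher and 3 lower with the drug, against 5 and 5 with DMSO (median log2 change of 1.89 with MS-275 and 0.01 with DMSO, limits used for 0 counts). Pdgfra, a receptor of mesenchyme and of oligodendrocyte precursors, was at 0.945 and 0.841 CPM at day 0, 13.6 and 13.01 with DMSO, and 72.3 and 67.9 with MS-275. Slc1a3, a glutamate transporter, fell in both groups and was at 286 and 269 CPM at day 0, 33.0 and 37.0 with DMSO, and 18.4 and 17.5 with MS-275. The summed glial markers were 10.8 to 11.6 CPM at day 0, 49.0 to 53.6 with DMSO and 71.9 to 73.4 with MS-275. Of 14 genes of the primitive streak, mesoderm and endoderm, 10 were higher and 1 lower with the drug, against 7 and 4 with DMSO (median log2 change of 2.74 with MS-275 and 1.47 with DMSO, limits used for 0 counts). Eomes, a T-box factor of the streak, was at 9.71 and 9.53 CPM at day 0, 0.889 and 0.852 with DMSO, and 6.98 and 5.82 with MS-275. Of 12 genes of extraembryonic endoderm, 5 were higher and 2 lower with the drug, against 3 and 5 with DMSO (median log2 change of 0.71 with MS-275 and −1.06 with DMSO, limits used for 0 counts). Lama1 and Col4a2, parts of basement membrane, had drug means of 71.1 ± 2.2 and 61.9 ± 1.3 CPM beside 12.8 ± 1.2 and 13.3 ± 0.038 at day 0. Of 14 muscle genes, 7 were lower and 4 higher with the drug, against 12 lower and none higher with DMSO (median log2 change of −0.86 with MS-275 and −3.04 with DMSO). Acta2, smooth muscle actin, had means of 108 ± 1.5, 11.7 ± 0.91 and 15.1 ± 0.44 CPM. Of 12 germline genes, 7 were higher and 5 lower with the drug, against 2 and 6 with DMSO (median log2 change of 1.79 with MS-275 and −0.75 with DMSO, limits used for 0 counts). Dmrt1, a factor of the testis and germ cells, was at 1.58 and 1.40 CPM at day 0, 0.628 and 0.625 with DMSO, and 13.02 and 12.7 with MS-275. Kit, the stem cell factor receptor, was at 6.83 and 6.50 CPM at day 0, 62.2 and 58.5 with DMSO, and 204 and 191 with MS-275. Of the defining markers of other types, Afp, Myod1, Tnnt2, Dazl, Ptprc and Hbb-bt were too low to be tested, and the part of other cell types in these rises was not tested.

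**Figure D5:**
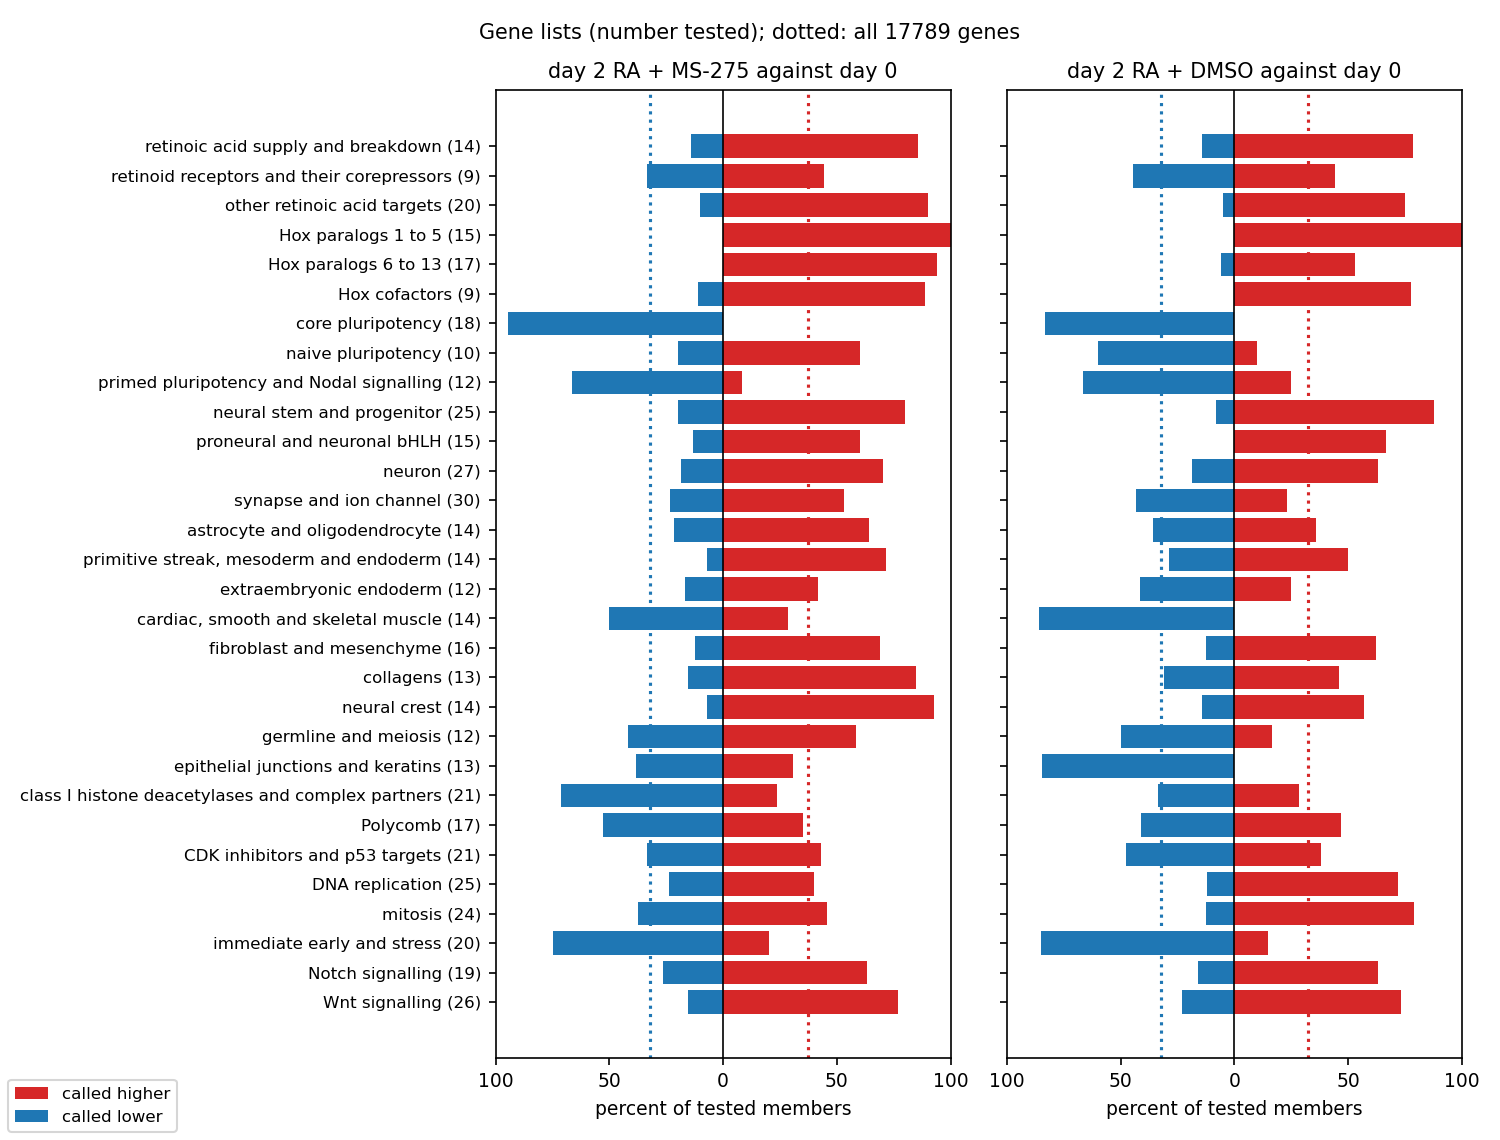
Percent of tested members of each of 30 gene lists called higher (red, to the right) or lower (blue, to the left) than at day 0, with MS-275 (left panel) and with DMSO (right panel); numbers tested are in brackets and dotted lines mark the percent over all 17789 genes. Hox paralogs 1 to 5 are at 100% higher in both panels, and the epithelial list has lower members in the right panel with none higher.

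The genes of the drug's own targets changed too. Of 21 tested genes of class I histone deacetylases and their complex partners, 15 were called lower and 5 higher with MS-275 than at day 0, against 7 lower and 6 higher with DMSO (median log2 change of −0.38 with MS-275 and −0.06 with DMSO). Hdac1 was at 213 and 204 CPM at day 0, 245 and 244 with DMSO, and 416 and 397 with MS-275, 1.95-fold above day 0 with the drug (adjusted p = 2.85e-11). Hdac2 had means of 183 ± 2.1, 223 ± 5.9 and 158 ± 7.2 CPM. Mbd3 and Chd3, subunits of the NuRD complex, were lower with the drug than in both other groups. Mbd3 was at 203 and 183 CPM at day 0, 161 and 149 with DMSO, and 64.6 and 59.3 with MS-275. Chd3 had means of 58.1 ± 3.2, 53.8 ± 0.21 and 17.96 ± 2.0 CPM. Mbd2, the subunit that takes the place of Mbd3, went the other way, with means of 13.8 ± 0.51, 13.7 ± 0.61 and 28.9 ± 1.1 CPM. Sap30, of the Sin3 complex, had means of 89.3 ± 0.33, 50.8 ± 6.0 and 28.6 ± 0.59 CPM. Of 17 Polycomb genes, 6 were higher and 9 lower with the drug, against 8 and 7 with DMSO (median log2 change of −0.22 with MS-275 and 0.11 with DMSO). Phc1 was at 1334 and 1342 CPM at day 0, 162 and 165 with DMSO, and 145 and 139.9 with MS-275, while Phc2, its paralog, had means of 24.9 ± 1.3, 119 ± 0.16 and 185 ± 12 CPM.

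Cell cycle genes were called in both directions with MS-275. Over all genes tested, 37.3% were called higher and 32.2% lower, so calls both ways with the drug are not particular to the cell cycle lists. Cdkn1a (p21), the inhibitor of cyclin-dependent kinases that histone deacetylase inhibitors are known to induce, was at 3.99 and 3.70 CPM at day 0, 11.9 and 10.3 with DMSO, and 51.1 and 43.9 with MS-275, 12.3-fold above day 0 with the drug and 2.89-fold without it. In its list of 21 tested kinase inhibitors and p53 targets, 9 were higher and 7 lower with MS-275, against 8 and 10 with DMSO (median log2 change of 0.15 with MS-275 and 0.02 with DMSO). Plk2, a target of p53, had means of 2.19 ± 0.091, 121 ± 0.20 and 115 ± 6.8 CPM at day 0, with DMSO and with MS-275 (95% interval of the log2 difference between the day 2 groups −0.22 to 0.09). Sesn2 had means of 209 ± 1.2, 35.1 ± 1.4 and 99.9 ± 8.3 CPM. Of 25 DNA replication genes, 10 were higher and 6 lower with MS-275, against 18 and 3 with DMSO (median log2 change of 0.07 with MS-275 and 0.40 with DMSO). Mcm2, of the replicative helicase, was at 384 and 385 CPM at day 0, 340.0 and 337 with DMSO, and 204 and 212 with MS-275. Of 24 mitosis genes, 11 were higher and 9 lower with MS-275, against 19 and 3 with DMSO (median log2 change of 0.11 with MS-275 and 0.36 with DMSO). Cdc20, an activator of the anaphase-promoting complex, was at 356 and 366 CPM at day 0, 249 and 249 with DMSO, and 137 and 138 with MS-275. Top2a, which untangles chromosomes, was at 1029.8 and 1006 CPM at day 0, 1503 and 1579 with DMSO, and 2199 and 2246 with MS-275. Mki67, the proliferation marker, had means of 419 ± 0.26, 832 ± 29 and 944 ± 29 CPM, so it was higher than at day 0 in both day 2 groups. Of 20 immediate early and stress genes, 15 were lower and 4 higher with MS-275, against 17 and 3 with DMSO (median log2 change of −1.66 with MS-275 and −2.23 with DMSO). Fos had means of 70.6 ± 9.2, 0.878 ± 0.21 and 4.10 ± 1.2 CPM. Trib3, a stress-induced pseudokinase, was at 263 and 252 CPM at day 0, 2.62 and 2.61 with DMSO, and 6.88 and 8.11 with MS-275. Txnip, which restrains glucose uptake and thioredoxin, was at 2.36 and 2.02 CPM at day 0, 89.4 and 81.2 with DMSO, and 1063 and 954 with MS-275. Txnip thus rose with DMSO and rose further with the drug, to 458-fold above day 0 (log2 SE 0.165, adjusted p = 1.10e-18).

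Some changes with MS-275 were not part of the response seen with DMSO. In 8551 genes the DMSO level was within 2-fold of day 0 by its 95% interval. Of these, 355 (4.15%) were 2-fold or more above both other groups with MS-275, and 216 (2.53%) that far below both. Of all 17789 genes, 3384 were called that far above DMSO with MS-275 and 1075 (6.04%) that far below it, whatever their day 0 level. Of 319 tested genes with at most 3 counts in both day 0 and DMSO, 57 (17.9%) reached at least 1 CPM with MS-275. Such genes passed the filter on low counts only through the MS-275, day 4 or day 8 libraries. The filter thus sets this share in part, and it does not measure how common such genes are. The largest changes from day 0 with MS-275 are given next. They went the same way with DMSO, so they are not among the 355, 216 and 57 genes counted above. The named rises of largest fitted change, an order that for genes with 0 counts at day 0 depends on the fit, were Hox genes already described, the antisense transcript Hoxaas2 and Mybpc1. Hoxaas2 was at 0 CPM in both libraries at day 0, 46.1 and 48.5 with DMSO, and 44.8 and 43.3 with MS-275, at least 542-fold above day 0 by the limit of 3 counts, which is under the limits of Hoxb3, Hoxb4 and Hoxa5. Mybpc1, a myosin-binding protein of slow muscle, was at 0 and 0.0560 CPM at day 0, 89.2 and 88.4 with DMSO, and 211 and 228 with MS-275. The largest falls were in Trim66, Tdgf1, Fam129a and in the following 5 genes. Cyp2b23, a cytochrome P450, was at 111 and 114 CPM at day 0, 0.105 and 0.455 with DMSO, and 0.544 and 0.448 with MS-275. Tdh, the threonine dehydrogenase that mouse embryonic stem cells depend on, was at 11.9 and 11.3 CPM at day 0, 0.0523 and 0 with DMSO, and 0 and 0.0995 with MS-275. Cavin3, a coat protein of caveolae, had means of 7.22 ± 0.93, 0.133 ± 0.11 and 0.0497 ± 0.070 CPM, and Eppk1 (epiplakin) 6.50 ± 1.3, 0.0568 ± 0.080 and 0.0495 ± 0.070 CPM, in the order day 0, DMSO and MS-275. Pagr1a was at 0.473 and 13.6 CPM at day 0, 0.209 and 0.0568 with DMSO, and 0 and 0.0995 with MS-275, so its fall rests on 1 of the 2 day 0 libraries, and its call was lost without that library (log2 −3.10, adjusted p = 0.288).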

How the data were processed

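RNA from 10 P19 libraries (5 groups of 2) was sequenced from poly(A) RNA. The authors deposited a table of estimated counts per gene (55385 identifiers, 55144 with a symbol), and the submitters' processing notes name Salmon 1.1.0, DESeq2 1.26.0, Bowtie2 2.4.1 and MACS2 2.2.7.1 and the build GRCm38. The estimated counts were rounded here, filtered with filterByExpr (17789 genes left), scaled with TMM factors and fitted with edgeR 4.0.16 over all 10 libraries, with quasi-likelihood tests and Benjamini-Hochberg adjustment over all genes tested. Standard errors and 95% intervals come from the same fit, and those of genes with few counts are wide. The script was tested on simulated counts. The library totals given in the report set the counting error, and intervals of count ratios cover that error only. A fold against 0 counts is a lower limit against 3 counts over both libraries.

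The groups and numbers of the replicates come from the sample titles. Replicate numbers were not taken to pair the libraries: the correlation of replicate differences was −0.026 between day 0 and MS-275, −0.047 between day 0 and DMSO and 0.181 between DMSO and MS-275. The fit without a replicate block is the main one. The members of each class and the 30 gene lists were chosen with earlier results of these data known. Named genes were the 8 largest rises and falls, the 8 members of each class with the largest change with DMSO and the 5 largest of those that turned (each with at least 5 CPM in 1 group and no overlap between groups), in each list the 4 called members of largest change and the largest the other way, and a fixed panel with all members of the retinoic acid, Hox 1 to 5 and core pluripotency lists. Genes outside that rule are marked in the text as chosen after their values were seen, and some genes that it names are not reported here.

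The authors' peak lists for day 2 hold 1 library per mark and condition, and their fold enrichment over input is the authors' value, used here to describe and filter peaks. A peak was counted at a gene where it overlapped 1000 bases either side of a RefSeq start. A symbol match gave a start for 12358 of 17772 tested symbols (69.5%), so shares of peaks or of elements by response class were void and are not given. Alternatives were other scalings and filters, DESeq2 1.42.0, the 6 libraries alone, the replicate block, each library left out and other limits of a response. Libraries of day 4 and day 8 entered the fit only.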

Additional observations from a re-analysis of the deposited data

How the results depend on the processing

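The class counts kept to within 1.5 times their value under other scalings, filters and tools, in the 6 libraries alone and with each library left out. Over these 15 settings, separate day 0 libraries included, the rises still at least 2-fold up made up 68.2% to 74.5% of all rises, the rises within 2-fold of day 0 12.9% to 17.6%, the falls still at least 2-fold down 43.8% to 48.2% of all falls, and the falls within 2-fold of day 0 17.1% to 22.7%. The counts moved with the limits of a response, by construction, and the shares moved as well. With a 1.5-fold response, 2237 of 3305 rises (67.7%) were still up by that fold and 772 (23.4%) at the day 0 level. Of 3379 falls, 1885 (55.8%) were still down. With a 4-fold response, 679 of 871 rises (78.0%) were still up by that fold and 27 (3.10%) at the day 0 level. Of 1159 falls, 399 (34.4%) were still down and 159 (13.7%) at the day 0 level. With a mean of at least 5 CPM, 925 of 1365 rises (67.8%) were still up. With the interval inside 1.5-fold, 112 rises (5.58%) and 162 falls (7.11%) were at the day 0 level. With library totals alone 7560 genes were called higher and 4873 lower than at day 0. With the replicate block 6602 genes were called higher and 5717 lower, the 4 class counts were 1417, 327, 1070 and 475, and the block changed the call of none of the named genes. Of 7281 recomputed values of 607 gene results, 7156 kept direction and call, 112 lost and 7 gained a call, and 6 changed sign, none of them called. For MS-275 against day 0 these were Epcam (log2 0.025) and Tmem130 (0.049) with library totals alone, and, with single libraries left out, Tmem130 (range −0.26 to 0.072), Faim2 (−0.079 to 0.29), Rxrg (−0.85 to 0.0023) and Tagln3 (−0.67 to 0.35). The changes of sign came without MS-275 replicate 1 for Tmem130 and Faim2, without day 0 replicate 2 for Rxrg and without day 0 replicate 1 for Tagln3. With peaks of at least 4-fold enrichment, 2284 starts held an H3K18la peak with MS-275, in place of 3755. The cause of these changes was not tested. Genes with few counts have wide intervals, and 2 libraries a group leave small differences between day 2 and day 0 undecided.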
